A study of Mus musculus with 26 samples.

Results

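Class II cytokine receptor chains are the cell surface receptors of the IL-10 and interferon families. Their 10 genes here were taken by symbol, and every row of the deposited value table annotated to exactly 1 of those symbols was used, which gave 13 probe sets among 35556 rows. Il22ra1 had 2 probe sets, Il20rb had 3, and Il10rb, Il10ra, Il22ra2, Il20ra, Ifnar1, Ifnar2, Ifngr1 and Ifngr2 had 1 each. A probe set is the group of array probes that measures 1 transcript, and its value is a log2 intensity, so a difference of 1 is a doubling of brightness. Probe sets of different genes bind with different strength, so levels were compared between groups and not between genes.

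RNA was measured on 26 mouse arrays in Ba/F3/gp130 cells, a murine pro-B line that depends on a cytokine to grow and carries gp130, the signalling chain of the IL-6 family. All cells had been kept in Hyper-IL-6, a fusion of IL-6 with its soluble receptor, then washed 4 times and starved of serum for 4 h. The natural receptor cells carried IL-10R2/IL-22Rα1. Of these, 4 arrays came from untreated cells and 4 from cells given IL-22 at 100 ng/ml for 2 h. The synthetic receptor cells carried mCherryVHHIL-10R2/GFPVHHIL-22Rα1, in which nanobodies against mCherry and GFP are joined to the chains. They were untreated (n = 6), given GFP-mCherry (n = 6) or given mCherry-Fc (n = 6), each protein at 100 ng/ml for 2 h. The labels do not say whether either line is a single clone or from which species the transfected chains came. Each construct was in a line of its own, so line and construct cannot be told apart. Nothing in the labels says that replicates were separate cultures, so p-values measure the spread between these arrays, which may be technical.

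These receptors work as pairs. A ligand-binding chain that recruits JAK1 joins an accessory chain that recruits TYK2 or JAK2, and the kinases then phosphorylate STAT proteins. IL-10R2, the product of Il10rb, is the accessory chain for IL-10, IL-22 and the lambda interferons, and IL-22Rα1, the product of Il22ra1, binds IL-22. IL-22Rα1 is best known in epithelial cells, whereas the interferon receptors are found on most cells. In the mouse, Ifnar2, Il10rb, Ifnar1 and Ifngr2 lie side by side on chromosome 16 with no other coding gene between them, and Ifngr1, Il22ra2 and Il20ra do so on chromosome 10 (RefSeq gene order).

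Some arrays stood apart before any comparison. The summed level of 7 myeloid markers ranged from 12.41 to 12.72 on natural receptor replicates 4 and 5, which are 3 arrays, and from 9.65 to 9.80 on the other natural receptor arrays. It ranged from 8.58 to 8.83 on all synthetic receptor arrays. Itgam, a myeloid integrin, averaged 10.34 in untreated and 9.66 in IL-22-treated natural receptor cells, against 5.42 to 5.59 in the synthetic receptor groups. Mpo averaged 8.99 and 7.97, against 7.21 to 7.28, while Csf3r and Elane stayed near 5.2 and 6.2. Replicates 4 and 5 were both in the untreated group and only replicate 5 in the IL-22 group, so these means do not compare like arrays. Of 12 pro-B and B lineage markers, 5 were above the array median. Cd79a and Cd79b, parts of the B cell receptor, and Ptprc, the leukocyte antigen CD45, were among the bright ones, whereas Pax5, Ebf1, Rag1, Rag2 and Dntt were dim. Differences that involve natural receptor arrays and were called are therefore given with and without replicates 4 and 5. What part the myeloid markers have in them was not tested. Replicate numbers up to 3 in natural and up to 11 in synthetic receptor cells are termed low and the rest high, a cut that no label gives.

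The main findings concern Ifngr2 and the genes of the transfected chains. Ifngr2, the accessory chain of the interferon gamma receptor, rose with both proteins in synthetic receptor cells and more with GFP-mCherry. Ifngr1, its ligand-binding partner, fell with IL-22 in natural receptor cells. Il10rb was lower in the synthetic than in the natural line, as was Il22ra1 by 1 of its 2 probe sets, and the other Il22ra1 probe set was not called.

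**Figure D1:**
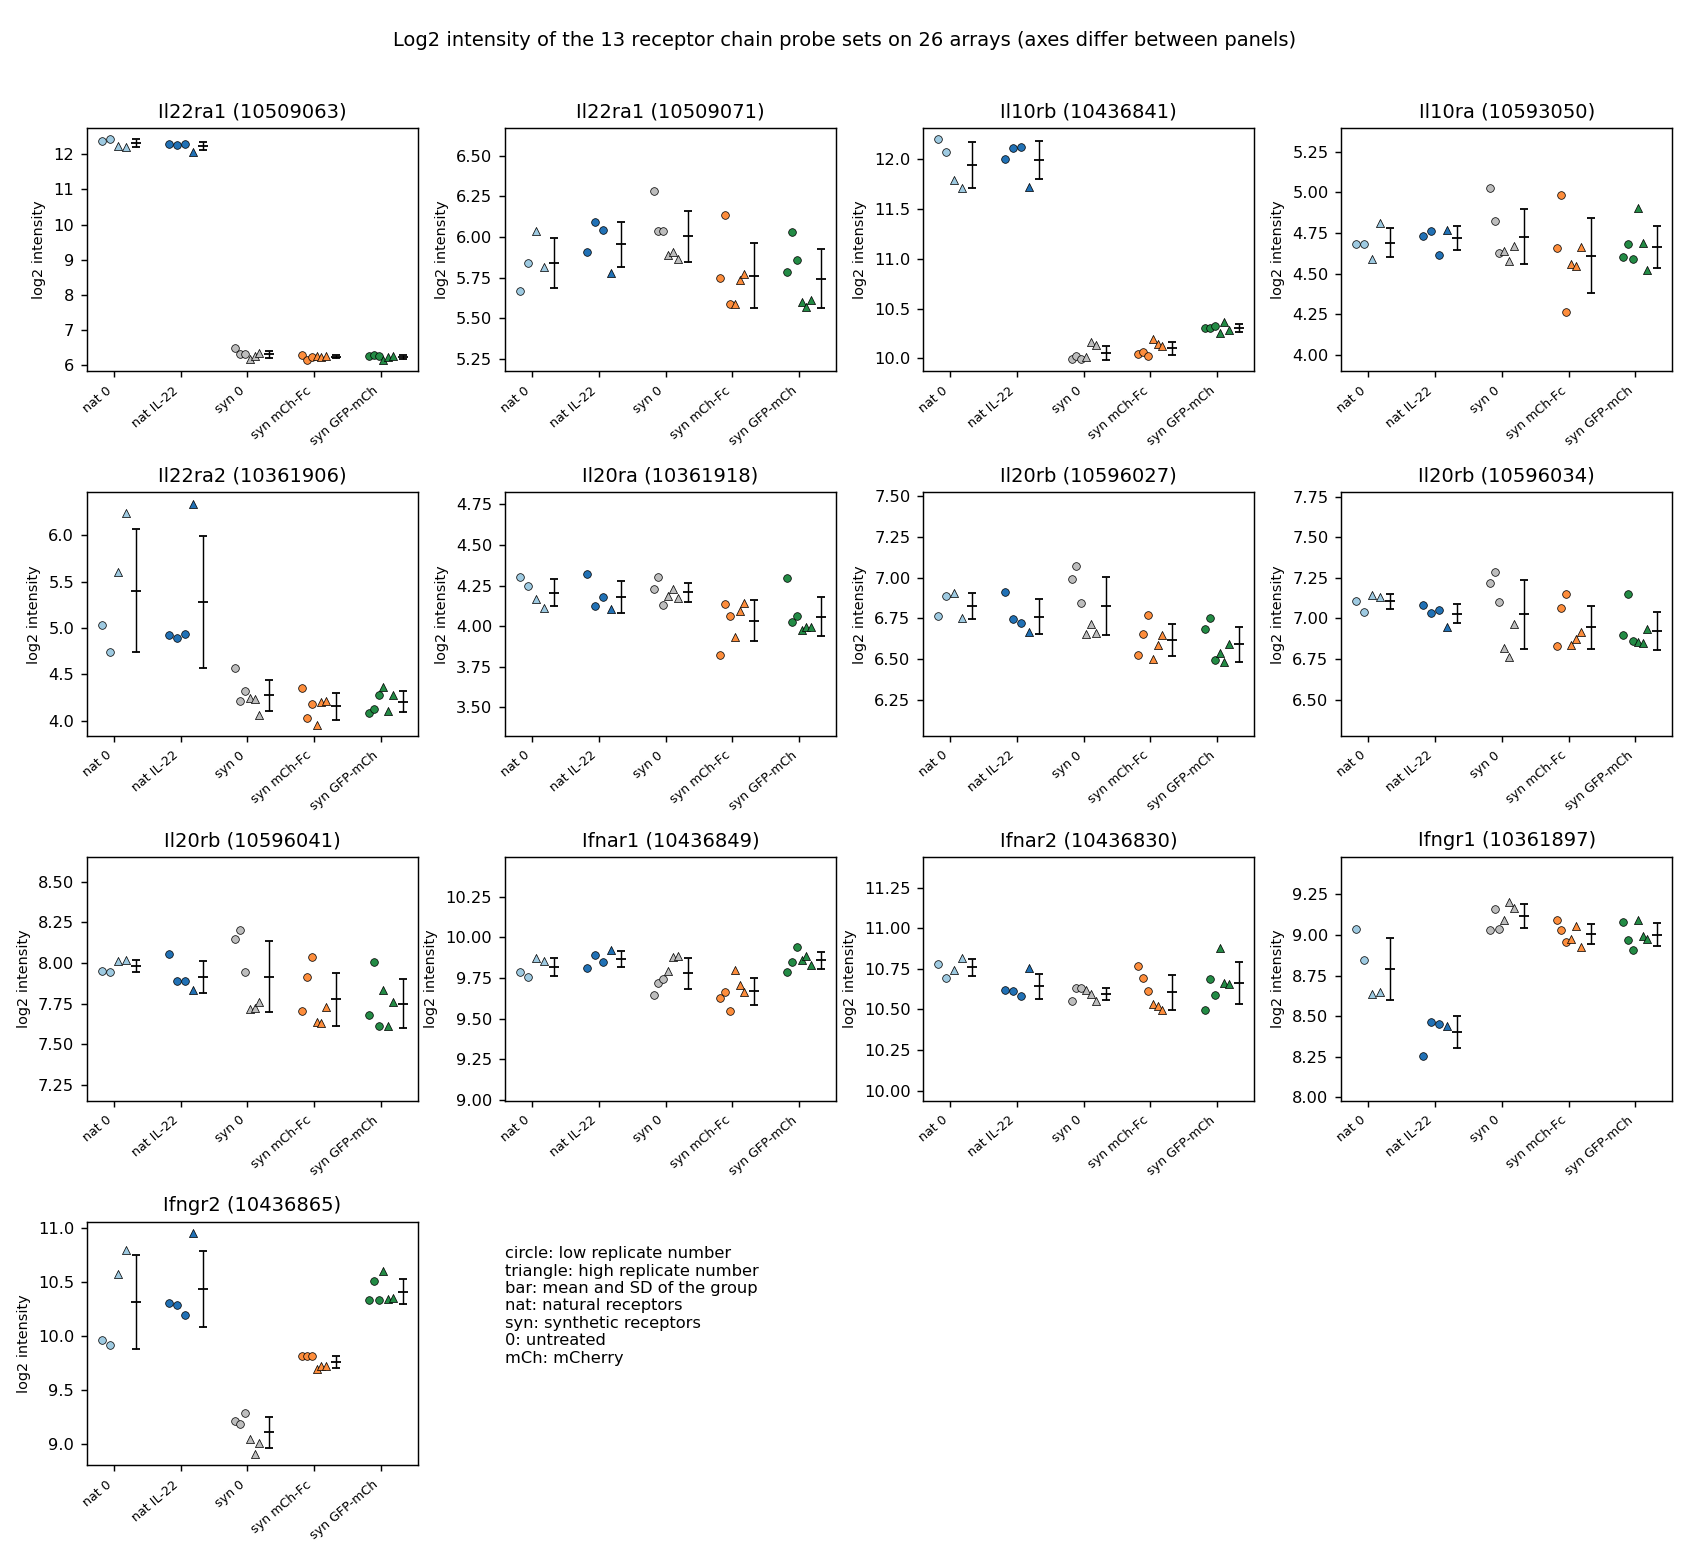
Log2 intensity (vertical axes, which differ between panels) of each probe set on each of the 26 arrays, by group, with circles for low and triangles for high replicate numbers and a bar for the group mean and SD. Ifngr2 steps up from untreated to mCherry-Fc to GFP-mCherry in synthetic receptor cells without overlap, and Il22ra1 10509063 lies near 12 in natural and near 6 in synthetic receptor cells.

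Il22ra1 was far lower in the synthetic than in the natural line by probe set 10509063. It read 12.38, 12.43, 12.22 and 12.22 in untreated natural receptor cells and 12.29, 12.27, 12.29 and 12.07 with IL-22. It read 6.48, 6.32, 6.31, 6.18, 6.27 and 6.34 in untreated synthetic receptor cells. All natural receptor arrays were far above all synthetic receptor arrays, and the ranges within each line overlapped. The untreated lines differed by -6.00 (SE 0.058, limma, adjusted p = 1.89e-28), and by -6.09 (adjusted p = 1.5e-24) without natural replicates 4 and 5. The synthetic group means lay between the 51.8th and 52.2nd percentile of their arrays. The deposited values carry no background call, so a signal above background is not shown there and no fold is given. The lines carry different constructs, and the RNA is bulk. Less of the probed sequence in the construct, fewer cells that carry a transcript and less of it per cell therefore cannot be told apart.

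The other Il22ra1 probe set, 10509071, did not follow. It ranged from 5.67 to 6.04 in untreated natural and from 5.87 to 6.28 in untreated synthetic receptor cells, and these ranges overlapped. The difference between lines was 0.16 (95% interval -0.06 to 0.39, adjusted p = 0.443). The within-array difference of the 2 probe sets shifted by -6.16 between the untreated lines. An exact permutation test gave p = 0.00476, the smallest p that 6 against 4 arrays allow, and 0.0952 after adjustment over the 20 tests of probe sets of 1 gene. Of these 20 exact tests, 4 had an unadjusted p under 0.05 and 0 had an adjusted one. Which part of the transcript each probe set covers is not given in the sources used here.

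Il10rb was bright in both lines. Its values do not separate the cells' own Il10rb transcript from that of the transfected chain. Probe set 10436841 read 12.21, 12.07, 11.79 and 11.71 in untreated natural receptor cells and 9.99, 10.02, 9.99, 10.02, 10.16 and 10.13 in untreated synthetic receptor cells. The lines did not overlap. The difference was -1.89 (SE 0.081, adjusted p = 2.56e-14), a 3.71-fold lower intensity in the synthetic line, and -2.09 (adjusted p = 9.6e-16) without natural replicates 4 and 5. The difference of Il22ra1 10509063 between the lines minus that of Il10rb was -4.10, and with Il22ra1 10509071 in its place it was 2.06. The exact permutation p was 0.00476 for each, the smallest possible, which complete separation of the arrays gives at any size. These values set changes of different probes side by side and turn direction with the Il22ra1 probe set chosen, so no order of the chains is read from them.

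GFP-mCherry raised Il10rb slightly. Its arrays read 10.30, 10.31, 10.32, 10.25, 10.37 and 10.28, all above the highest untreated synthetic value of 10.16. The rise was 0.25 (SE 0.073, adjusted p = 0.0151), or 1.19-fold. With mCherry-Fc the values ran from 10.02 to 10.20 and overlapped the untreated ones, with a difference of 0.05 (95% interval -0.11 to 0.20, adjusted p = 0.699). Although GFP-mCherry and mCherry-Fc arrays did not overlap, the difference of 0.21 between them did not pass the threshold (adjusted p = 0.351). The Il10rb rise was not called on high replicate numbers alone, at 0.20 (adjusted p = 0.061). IL-22 gave a difference of 0.05 (adjusted p = 0.902) for Il10rb, and -0.08 (adjusted p = 0.627) and 0.12 (adjusted p = 0.758) for Il22ra1 10509063 and 10509071.

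Il10ra, the ligand-binding chain for IL-10, was dim, at about the 24th percentile of its array. Its group means ran from 4.61 to 4.73 and all neighbouring groups overlapped. No comparison of Il10ra passed the threshold.

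Il22ra2 encodes a secreted binding protein that holds IL-22 away from its receptor. It read 5.03, 4.74, 5.60 and 6.24 in untreated natural receptor cells, and 4.93, 4.90, 4.94 and 6.34 with IL-22. In untreated synthetic receptor cells the lowest, median and highest values were 4.06, 4.24 and 4.57, so the lines did not overlap. The high values among natural receptor arrays were those of replicates 4 and 5, the arrays with the high myeloid marker sum. The difference between untreated lines was -1.13 (SE 0.236, adjusted p = 0.00225), and -0.61 (adjusted p = 0.00141) without those 3 arrays. The synthetic group means lay between the 16.8th and 17.9th percentile of their arrays, so a signal above background is not shown there. Neither IL-22 (-0.13, adjusted p = 0.914) nor the proteins given to synthetic receptor cells changed Il22ra2 past the threshold.

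Il20ra and Il20rb together form a receptor for IL-19, IL-20 and IL-24. Il20ra was near the bottom of the arrays, with group means of 4.03 to 4.21. Its lowest, median and highest values were 4.13, 4.21 and 4.30 in untreated synthetic receptor cells and 3.83, 4.08 and 4.14 with mCherry-Fc, and these overlapped. Il20ra fell by 0.18 with mCherry-Fc (SE 0.062, adjusted p = 0.045). With the replicate number as a block, the difference was -0.14 (adjusted p = 0.215), and 17 of 25 alternatives lost this call. With GFP-mCherry the difference was -0.15 (adjusted p = 0.0885).

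Il20rb had 3 probe sets. For 10596027 the lowest, median and highest values were 6.65, 6.78 and 7.07 in untreated synthetic receptor cells, 6.48, 6.56 and 6.75 with GFP-mCherry, and 6.50, 6.62 and 6.77 with mCherry-Fc. The treated groups lay lower but overlapped the untreated one. Il20rb 10596027 fell by 0.24 with GFP-mCherry (SE 0.072, adjusted p = 0.0217) and by 0.21 with mCherry-Fc (SE 0.072, adjusted p = 0.0395). These calls were lost under 7 and 11 of 25 alternatives, respectively, and after centring each array on its median they were -0.13 (adjusted p = 0.147) and -0.10 (adjusted p = 0.259). The other Il20rb probe sets gave -0.10 (10596034, adjusted p = 0.386) and -0.17 (10596041, adjusted p = 0.2) with GFP-mCherry, and neither was called in any comparison. The within-array gap between 10596027 and 10596034 shifted by -0.13 with GFP-mCherry (exact permutation p = 0.0152, adjusted p = 0.101).

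Ifnar1 and Ifnar2, the chains of the type I interferon receptor, were bright and nearly level. Ifnar1 group means ran from 9.67 to 9.87, and Ifnar2 group means from 10.60 to 10.76. Ifnar1 had a lowest, median and highest value of 9.79, 9.86 and 9.94 with GFP-mCherry and of 9.55, 9.66 and 9.80 with mCherry-Fc. The groups overlapped by a single array each, and the difference of 0.19 (SE 0.047, 95% interval 0.09 to 0.29) missed the threshold (adjusted p = 0.0628). Ifnar2 differed by -0.16 between the untreated lines (adjusted p = 0.112). No comparison called either gene.

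Ifngr1 read 9.04, 8.85, 8.64 and 8.65 in untreated natural receptor cells and 8.25, 8.46, 8.45 and 8.44 with IL-22. The groups did not overlap. Ifngr1 fell by 0.39 with IL-22 (SE 0.074, adjusted p = 0.000754), a 1.31-fold lower intensity, and the difference was -0.55 (adjusted p = 4.85e-05) without natural replicates 4 and 5. On high numbers alone, with a lone IL-22 array assumed to vary like the rest, it was -0.20 (adjusted p = 0.446), and with only the groups compared it kept its size but not its call (adjusted p = 0.104). In untreated synthetic receptor cells Ifngr1 had a lowest, median and highest value of 9.03, 9.13 and 9.21, 0.32 above the natural line (SE 0.067, adjusted p = 0.00204), a difference of 0.18 (adjusted p = 0.196) without natural replicates 4 and 5. GFP-mCherry and mCherry-Fc gave -0.11 each (adjusted p = 0.192 and 0.201). The tests of these responses against the IL-22 response gave 0.28 for both (adjusted p = 0.0698 and 0.0679). Without natural replicates 4 and 5 those tests gave 0.44 for both (adjusted p = 0.00339 and 0.00346).

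Ifngr2 read 9.21, 9.19, 9.29, 9.05, 8.90 and 9.01 in untreated synthetic receptor cells. With mCherry-Fc it read 9.81, 9.81, 9.82, 9.70, 9.72 and 9.72, and with GFP-mCherry 10.33, 10.51, 10.34, 10.61, 10.34 and 10.35. No array of any of these groups overlapped another group. Ifngr2 rose by 1.30 with GFP-mCherry (SE 0.129, adjusted p = 1.61e-07), which is 2.47-fold. It rose by 0.66 with mCherry-Fc (SE 0.129, adjusted p = 0.000892), which is 1.58-fold. GFP-mCherry was 0.65 above mCherry-Fc (SE 0.129, adjusted p = 0.0104). The 2 responses share the untreated arrays.

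In natural receptor cells Ifngr2 read 9.97, 9.92, 10.58 and 10.79 untreated and 10.31, 10.29, 10.19 and 10.95 with IL-22. The replicates 4 and 5 were the high arrays in both groups, which overlapped. The untreated group held both of these replicates, and the IL-22 group held replicate 5 only. On the other replicates the mean was 9.94 untreated and 10.26 with IL-22. On replicates 4 and 5 the untreated mean was 10.68, and the lone IL-22 array read 10.95. The IL-22 difference was 0.12 (95% interval -0.20 to 0.45, adjusted p = 0.833), and 0.32 (adjusted p = 0.0519) without replicates 4 and 5. On low replicate numbers alone it was 0.32 (adjusted p = 0.00977). That fit used the same natural receptor arrays and fewer synthetic ones, so it is no separate support. The untreated synthetic line was 1.21 lower than the natural one on the log2 scale, or 2.31-fold lower (SE 0.144, adjusted p = 2.88e-06), with a difference of -0.84 (adjusted p = 1.92e-06) without those replicates. The order of group means was untreated synthetic, mCherry-Fc, untreated natural, GFP-mCherry and IL-22, and the last 3 overlapped.

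The Ifngr2 response to GFP-mCherry exceeded that to IL-22 by 1.18 (SE 0.204, adjusted p = 0.000348), and by 0.98 (adjusted p = 4.54e-06) without natural replicates 4 and 5. The mCherry-Fc response minus the IL-22 response was 0.53 (SE 0.204), which missed the threshold (adjusted p = 0.109), and 0.34 (adjusted p = 0.0713) without those replicates. For Il10rb, the response to GFP-mCherry exceeded the one to IL-22 by 0.31 (adjusted p = 0.0147) without those replicates, a difference that was not called with all arrays.

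**Figure D2:**
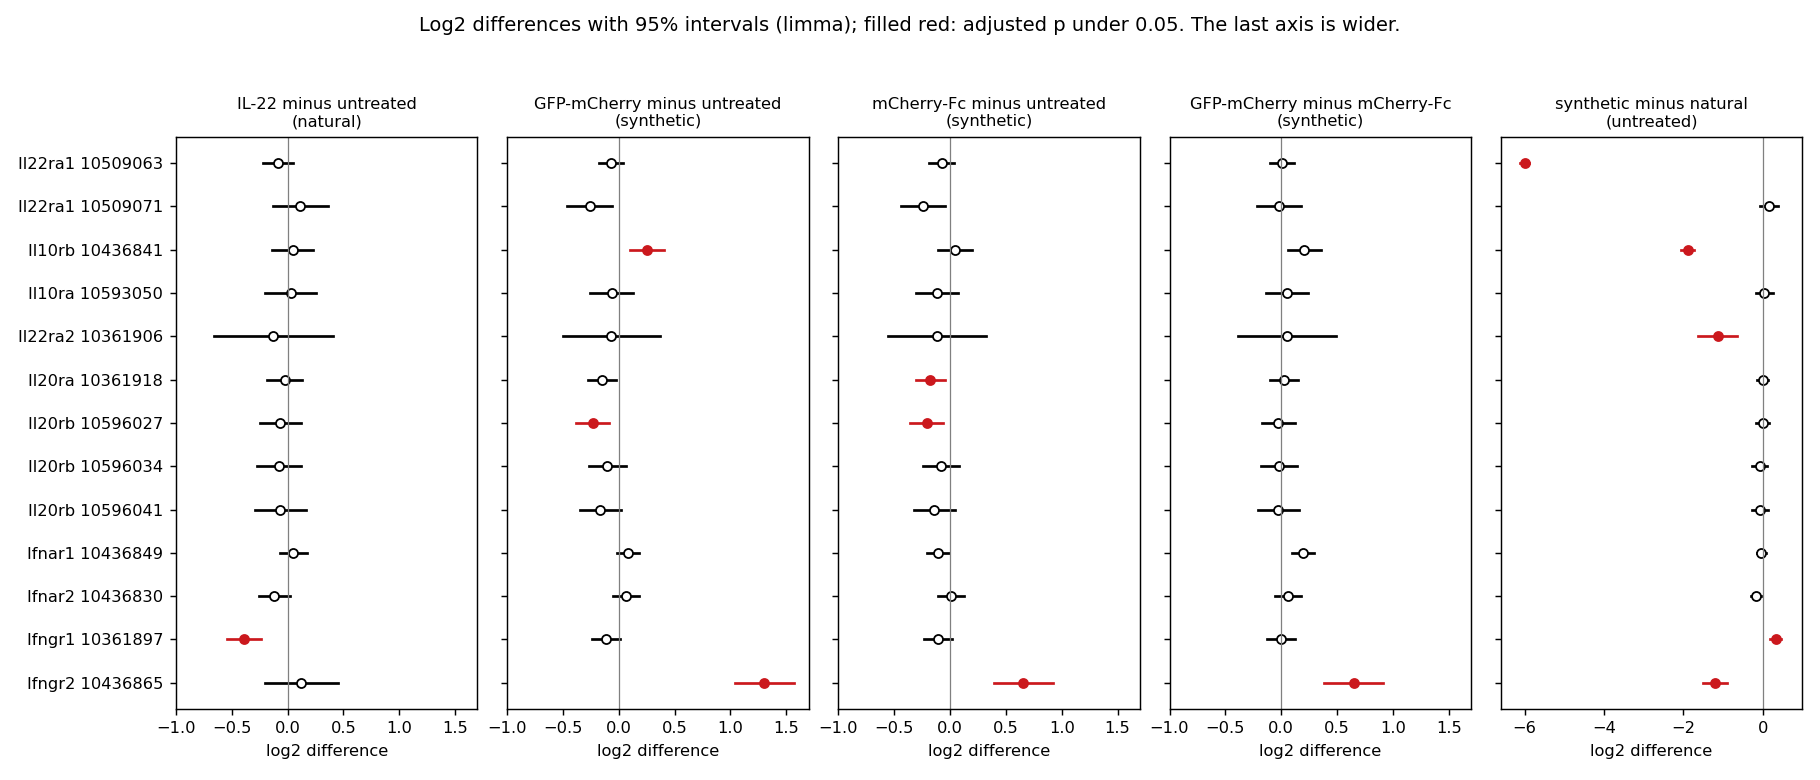
Log2 differences (horizontal axes, the last one wider) with 95% limma intervals for each of the 13 probe sets in 5 comparisons, filled red where the adjusted p was under 0.05. Ifngr2 is right of 0 in all 3 comparisons of the synthetic receptor cells, Ifngr1 is called lower with IL-22, and Il22ra1 10509063 stands at -6.00 between lines.

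**Figure D3:**
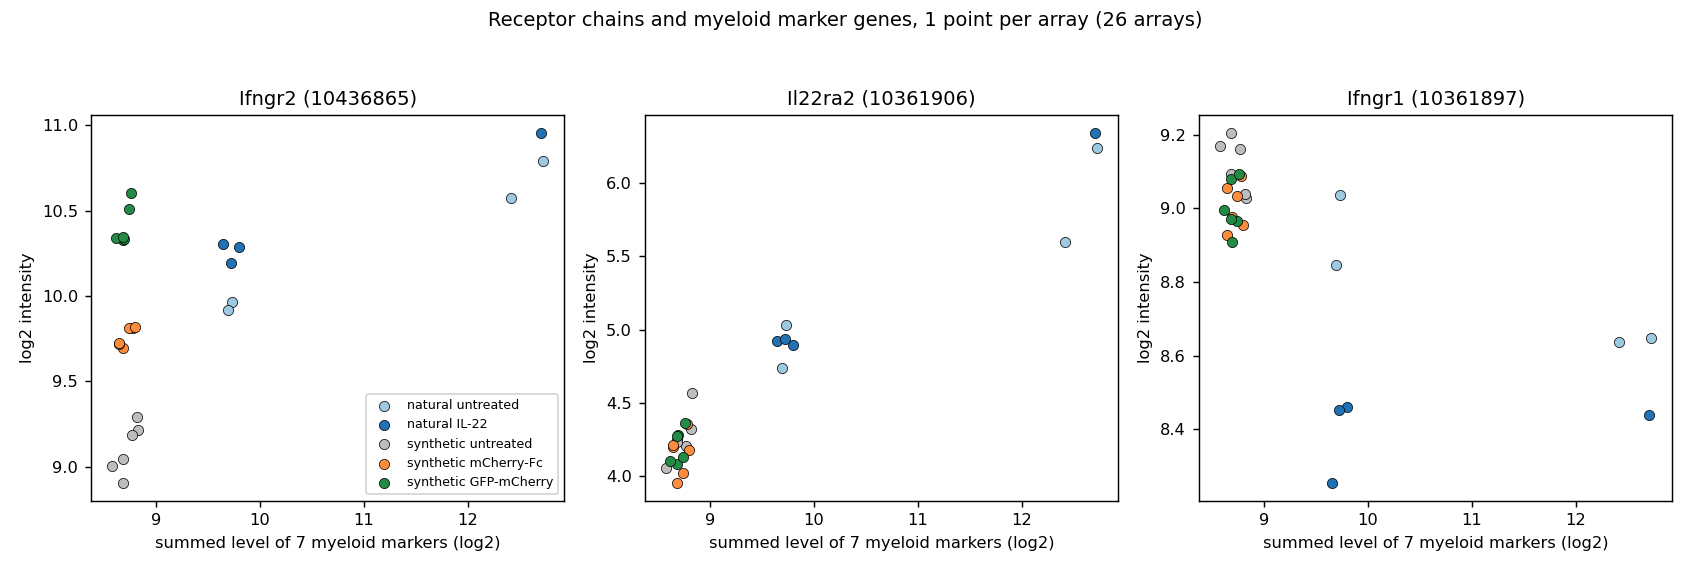
Log2 intensity of Ifngr2, Il22ra2 and Ifngr1 (vertical axes) against the summed level of 7 myeloid markers (horizontal axis, log2), 1 point per array and coloured by group. The 3 natural receptor arrays at 12.41 to 12.72 hold the highest Il22ra2 values, while Ifngr2 spans 8.90 to 10.61 among synthetic receptor arrays whose marker sums lie between 8.58 and 8.83.

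The promoters of Ifngr2 and Ifngr1 are shown because these partner chains were called with different treatments when all arrays were used. Ifngr1 was then called with IL-22, and Ifngr2 with GFP-mCherry and mCherry-Fc. On low replicate numbers alone, Ifngr2 was also called with IL-22. Between untreated lines both were called, in opposite directions. Each window holds 250 bases before and 50 bases after the annotated start (RefSeq, GRCm38.p6, plus strand), with motif matches in capitals. The table held 7 of the 10 genes. Searched on both strands were the STAT motif TTCNNNGAA, a wider STAT form TTCNNNNGAA, the interferon response element GAAANNGAAA and the kappaB motif. The wider form was added after the Ifngr2 sequence had been seen.
Ifngr2, chr16:91546809-91547108: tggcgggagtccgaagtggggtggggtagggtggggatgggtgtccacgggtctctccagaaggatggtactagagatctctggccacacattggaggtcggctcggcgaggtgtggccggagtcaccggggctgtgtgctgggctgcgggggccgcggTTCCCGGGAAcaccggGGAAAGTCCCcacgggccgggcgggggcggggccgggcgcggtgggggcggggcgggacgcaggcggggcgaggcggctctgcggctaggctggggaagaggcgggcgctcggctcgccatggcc
Ifngr1, chr10:19591699-19591998: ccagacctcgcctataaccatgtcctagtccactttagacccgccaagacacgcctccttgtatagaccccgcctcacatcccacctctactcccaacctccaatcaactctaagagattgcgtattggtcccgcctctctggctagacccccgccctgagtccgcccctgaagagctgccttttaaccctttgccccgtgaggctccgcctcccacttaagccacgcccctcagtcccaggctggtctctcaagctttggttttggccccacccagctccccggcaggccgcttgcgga
The Ifngr2 window held a wider STAT match, TTCCCGGGAA, starting at base -91 from the annotated start, and a kappaB match, GGGACTTTCC on the minus strand, at base -75. The 2 matches do not overlap. The Ifngr1 window held none of the 4 motifs. Of 32851 promoters, 8.3% held the STAT motif, 6.95% the wider form, 8.46% the kappaB motif and 3.44% the interferon response element. Among the other 5 windows, Ifnar1 and Ifnar2 held a STAT match, Il20ra a wider STAT match, Il22ra1 a kappaB match and Il20rb none. A match describes the letters only.

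The counts of receptor chains called were read against all rows of the table. With IL-22, 1 of 13 probe sets was called, Ifngr1, against 7.17% of all rows (3.7% higher and 3.47% lower). With GFP-mCherry 3 were called (2 higher, 1 lower) against 20.7% (10.7% higher and 10.1% lower), and with mCherry-Fc 3 (1 higher, 2 lower) against 21.1% (10.2% higher and 10.9% lower). Between GFP-mCherry and mCherry-Fc 1 was called, Ifngr2, against 0.63% (0.427% higher and 0.202% lower). Between untreated lines 5 were called (1 higher, 4 lower) against 9.76% (5.16% higher and 4.61% lower). The GFP-mCherry response differed from the IL-22 response for 1, Ifngr2, against 9.24% (5.89% higher and 3.35% lower). The mCherry-Fc response did so for 0 by limma, with 4 at an unadjusted p under 0.05, against 8.82% (5.32% higher and 3.5% lower). The share of chains called with GFP-mCherry or mCherry-Fc was therefore near that of all rows. After median centring, 84.8% of all GFP-mCherry calls and 84.9% of all mCherry-Fc calls were higher, against 51.5% and 48.4% as deposited, and the median difference over all rows moved from -0.04 to 0.06 and from -0.03 to 0.07.

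Genes that act with the receptors were counted by list. Of all rows, 7.17% were called with IL-22, 20.7% with GFP-mCherry, 21.1% with mCherry-Fc and 0.63% between these proteins. The median difference over all rows was -0.02 with IL-22, -0.04 with GFP-mCherry and -0.03 with mCherry-Fc. Of 10 kinases and transcription factors, 5 rose with IL-22 and 0 fell (list median 0.42, against -0.02 over all rows), among them Stat5a by 1.53 (adjusted p = 4.05e-16), Stat3 by 0.98 (adjusted p = 2.67e-11) and Stat2 by 1.22 (adjusted p = 3.5e-11). With GFP-mCherry 0 rose and 1 fell, Stat2 by 0.27 (adjusted p = 0.00356, list median -0.02 against -0.04). With mCherry-Fc 0 were called. Of 13 negative regulators, 7 rose and 1 fell with IL-22, and 6 rose and 1 fell with each of GFP-mCherry and mCherry-Fc (medians 0.42, 0.27 and 0.30). Socs3, a feedback inhibitor of JAK signalling, rose by 4.30 (adjusted p = 6.24e-21), 1.02 (adjusted p = 4.03e-10) and 0.94 (adjusted p = 4.66e-09). Cish, a feedback inhibitor induced by STAT5, was 0.63 higher with GFP-mCherry than with mCherry-Fc (adjusted p = 0.004).

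Of 28 interferon-stimulated genes, 13 rose and 0 fell with IL-22 (median 0.31, against -0.02 over all rows, of which 7.17% were called). Oas2, an antiviral enzyme, rose by 2.10 (adjusted p = 8.36e-10), and Irf1, a transcription factor of the interferon response, by 0.85 (adjusted p = 1.92e-06). With GFP-mCherry 3 rose and 1 fell (median -0.03, against -0.04 over all rows), among them Irf1 by 0.93 (adjusted p = 4.47e-08). With mCherry-Fc 1 rose and 1 fell (median -0.05, against -0.03). Both counts were smaller shares than the 20.7% and 21.1% of all rows called with GFP-mCherry and mCherry-Fc. Irf1 and Gbp3, an interferon-inducible GTPase, were the 2 higher with GFP-mCherry than with mCherry-Fc, by 0.83 (adjusted p = 1.24e-06) and 0.67 (adjusted p = 0.00482). Of 25 IL-10 and IL-22 response genes, 14 rose with IL-22, 11 rose and 1 fell with GFP-mCherry, and 7 rose with mCherry-Fc (medians 0.68, 0.15 and 0.10). Between untreated lines 12 of these 25 genes were lower in the synthetic line, against 4.61% of all rows. Among the 12 were Tnip3, with a difference of -3.81 (adjusted p = 1.23e-15), and Hp, the acute phase protein haptoglobin, with -1.61 (adjusted p = 1.64e-13). Without natural replicates 4 and 5 the differences were -3.49 (adjusted p = 3.5e-13) for Tnip3 and -1.77 (adjusted p = 6.64e-12) for Hp. The IL-22 differences were then 1.59 for Stat5a, 1.11 for Stat3, 1.37 for Stat2, 4.34 for Socs3, 2.52 for Oas2 and 1.05 for Irf1, each still called (largest adjusted p = 1.06e-06). Without those replicates, 10 response genes were lower between lines, and the numbers that rose with IL-22 were 5 kinases and factors, 8 negative regulators, 14 interferon-stimulated and 15 response genes. With only the groups compared, 4 interferon-stimulated genes rose with IL-22, and on high numbers alone 2.

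Of 21 ligands of these receptors, Il10 rose with IL-22 by 1.24 (adjusted p = 2.66e-07), a difference of 1.39 (adjusted p = 2.62e-07) without natural replicates 4 and 5. Il10 was dim, averaging 4.23 in untreated and 5.48 in IL-22-treated natural receptor cells. It lay at the 20.4th percentile on average over all arrays, so a signal above background is not shown in untreated cells. With GFP-mCherry 0 ligands rose and 3 fell (median -0.12, against -0.04 over all rows), and with mCherry-Fc 0 rose and 5 fell (median -0.15, against -0.03). Ifna5, a type I interferon, fell by 0.50 (adjusted p = 0.0002) with GFP-mCherry and by 0.52 (adjusted p = 0.000166) with mCherry-Fc. Of 18 receptor trafficking genes, 0 were called with IL-22, 4 rose and 2 fell with GFP-mCherry, and 4 rose with mCherry-Fc, among them Skp1, a ubiquitin ligase subunit, by 0.35 (adjusted p = 0.000175). Their medians were -0.04, 0.009 and 0.05, against -0.02, -0.04 and -0.03 over all rows. Of all rows, 7.17%, 20.7% and 21.1% were called, respectively. The family chains outside the 10 genes, Ifnlr1 and F3, were called in no comparison.

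The genes whose levels most resembled each called chain over the 26 arrays were described by Pearson's r among 18165 genes, with no p. For Ifngr2 they were Pik3cd (0.945), Dgkd (0.927) and Cd82 (0.918), and r was 0.939, 0.693 and 0.937 after the group means had been removed. For Ifngr1 they were Creg1 (0.948), Heca (0.943) and Tsc22d1 (0.94), with 0.653, 0.661 and 0.572 after removal. For Il22ra2 they were Entpd1 (0.98), Cd74 (0.968) and Got1l1 (0.967), with 0.956, 0.916 and 0.935. For Il22ra1 10509063 they were Flt1 (0.987), Tspan8 (0.987) and Ccdc38 (0.984), with 0.0597, 0.525 and 0.119 after removal. For Il10rb they were Tspan8 (0.986), Ctsj (0.986) and Prkd3 (0.984), with 0.764, 0.799 and 0.0727. Values with the group means removed rest partly on natural replicates 4 and 5, the arrays with the high myeloid marker sum. Over the 23 arrays without them, those values were 0.881, 0.0669 and 0.912 for Ifngr2 with Pik3cd, Dgkd and Cd82, and 0.659, 0.387 and 0.393 for Il22ra2 with Entpd1, Cd74 and Got1l1. For Il10rb with Tspan8 and Ctsj they were -0.00582 and -0.152. For Il22ra1 10509063 with Flt1, Tspan8 and Ccdc38 they were 0.119, -0.176 and -0.042. For Ifngr1 with Creg1, Heca and Tsc22d1 they were 0.404, 0.551 and 0.429. The genes most like Il20rb 10596027 over the 26 arrays were Lmx1b (0.916), Entpd2 (0.893) and Epn3 (0.883). Those most like Il20ra were Olfr320 (0.802), Slc22a4 (0.773) and Tafa3 (0.771). These arrays share the depositors' normalization and, within a line, the replicate numbers.

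**Figure D4:**
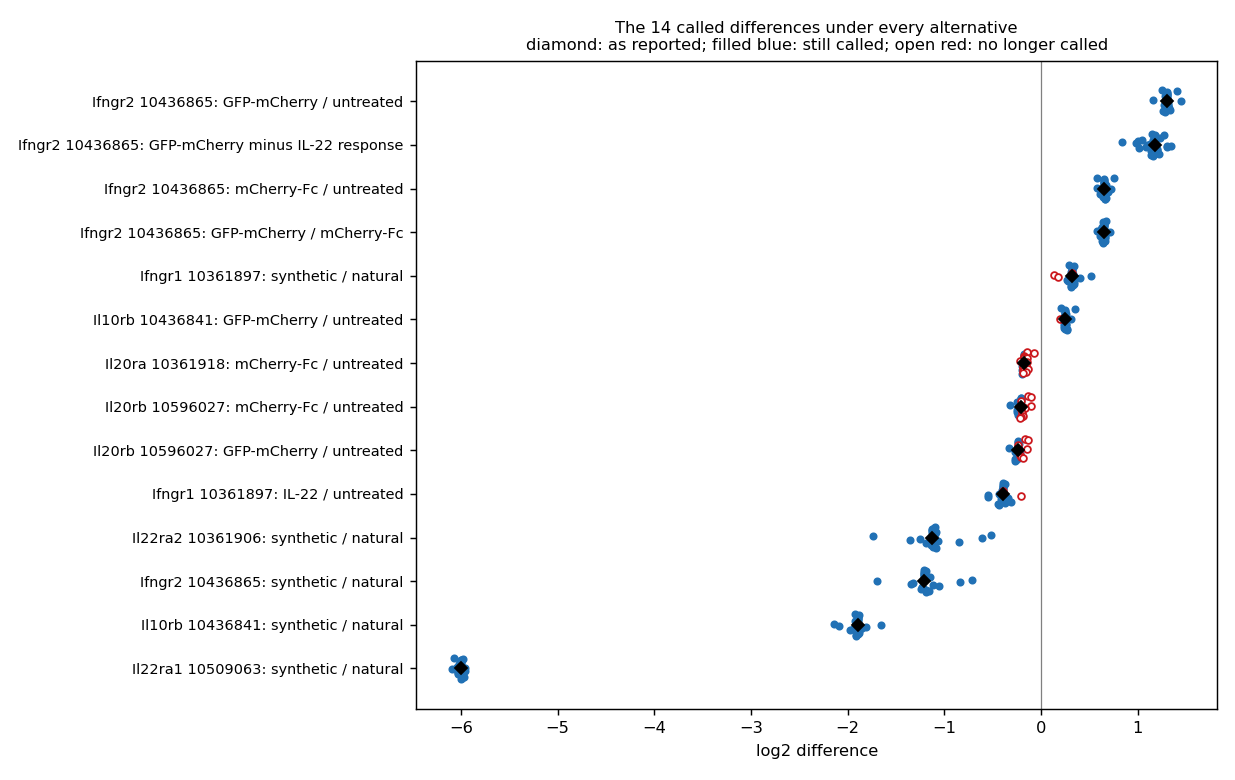
Log2 difference (horizontal axis) of the 14 called differences as reported (diamonds) and under each alternative, filled blue where still called and open red where not. All 5 Ifngr2 differences stayed called, whereas those of Il20ra and Il20rb were often lost.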

How the data were processed

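Each deposited value is a probe set's log2 intensity, made by the authors with Affymetrix Expression Console 4.0, per the submitters' processing notes; the algorithm, background correction and genome build are not given in the sources used here. All 26 array columns were mapped to samples by title, and 0 pairs of arrays were identical. The number of arrays limits the precision.

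All 35556 rows entered 1 linear model with 5 groups (R 4.3.3, limma 3.58.1, lmFit and eBayes, no block), tested on simulated data. P-values were two-sided, Benjamini-Hochberg adjusted over all rows, with a threshold of 0.05. Within-array differences between probe sets were compared by exact permutation, two-sided. Receptor chains and gene lists were chosen with earlier results of these data known. Of each list and comparison, up to 3 called genes with the smallest p could be named. Of the rows, 21789 had 1 gene symbol, 1621 several and 12146 none. Of mCherry-Fc and untreated arrays with the same number, all 3 pairs deviated together (correlations 0.199 to 0.35). Only 1 of these 3 matched its own number best, so pairing by number is not shown. A fixed block on the number gave 4773 called rows in place of 7506. The mCherry-Fc replicates 8, 10 and 15 have no same-numbered array in another group and add nothing to that comparison. Alternatives covered normalization, dim filters, rows tested, variance prior, weights, samples, replicate blocks, number ranges and single arrays left out. Leaving out natural replicates 4 and 5 was added after the data had been seen.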

Additional observations from a re-analysis of the deposited data

Results flagged for a closer look

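Of 65 groups of 4 to 6 arrays, 9 held an array far from the others by Dixon's criterion, where chance gives about 1 in 20, or 3.25. In IL-22-treated natural receptor cells, replicate 5 stood apart for Il22ra1 10509063 (12.07), Il22ra2 (6.342) and Ifngr2 (10.95), and replicate 1 for Ifngr1 (8.253). With GFP-mCherry, replicate 12 stood apart for Il22ra1 10509063 (6.137), replicate 7 for Il20ra (4.299) and replicate 9 for Il20rb 10596034 (7.149). With mCherry-Fc, replicate 9 stood apart for Il22ra1 10509063 (6.161) and 10509071 (6.135).

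For Ifngr2, the GFP-mCherry response in synthetic receptor cells minus the IL-22 response in natural receptor cells was 1.18 (limma interaction test, adjusted p = 0.000348), and 0.98 (adjusted p = 4.54e-06) without natural replicates 4 and 5. The mCherry-Fc response minus the IL-22 response was 0.53 (adjusted p = 0.109), and 0.34 (adjusted p = 0.0713) without them. Line, construct and ligand differ together in these values and cannot be told apart.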

How the results depend on the processing

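Of 14 calls, 8 held under every alternative run and 6 were lost under at least 1; 0 changed sign, and 20 of 77 uncalled results were called under at least 1. The 5 Ifngr2 calls and the Il10rb and Il22ra1 10509063 differences between lines held throughout. The Il22ra2 difference between lines held under the 21 alternatives run on it. The dim filters are not among these, because Il22ra2 was too dim to pass them. Counts of chains called moved as follows, and the cause was not tested. Percentages are the share of all rows called in that setting, and are not given for single arrays left out. With IL-22 (1 called) it was 0 with only the groups compared (2.83%). It was 2 with the number range as a term (9.76%) or low numbers (9.79%). With GFP-mCherry (3) it was 5 with a random replicate block (27.3%) and 2 to 4 with single arrays left out. With mCherry-Fc (3) it was 1 after median centring (22.7%) or with a mean of at least 7 (40.5%). It was also 1 with only the groups compared (16.4%) or high numbers (13.7%). It was 5 with the number range as a term (28.7%). Single arrays left out gave 1 to 4 (1 without untreated 9 or mCherry-Fc 8, 13 or 14). Between GFP-mCherry and mCherry-Fc (1) it was 2 after quantile normalization (0.717%) or with a mean of at least 5 (1.07%) or 7 (2.31%). It was also 2 with a trended prior (0.7%), array weights (1.27%), only the groups compared (1.19%), a random block (0.855%) or low numbers (1.74%). It was 3 with the number range as a term (1.37%) or natural replicates 1 to 3 (1.17%). Single arrays left out gave 1 to 2.

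For the GFP-mCherry minus the IL-22 response (1) it was 2 after centring (11.5%) or with a random block (13.2%). With a mean of at least 5 (14.9%) or 7 (28.1%) it was also 2. It was 3 with a fixed block (8.87%), the number range as a term (14.6%), low numbers (14.6%) or natural replicates 1 to 3 (11%). Single arrays left out gave 1 to 2. For the mCherry-Fc minus the IL-22 response (0) it was 1 after quantile normalization (7.35%) or with a random block (12%). With a mean of at least 5 (14.3%) or 7 (26.4%), low numbers (12.8%) or natural replicates 1 to 3 (10.9%) it was also 1. It was 2 after centring (11.3%), with array weights (11%) or the number range as a term (14.8%). Single arrays left out gave 0 to 1. Tests of probe sets of 1 gene gave 0 to 2 calls with single arrays left out. Of the other same-numbered pairs, 2 of 3 natural, 4 of 6 GFP-mCherry and untreated, and 2 of 3 GFP-mCherry and mCherry-Fc pairs correlated above 0.1. The own number matched best in 2 of 3, 2 of 6 and 1 of 3 of these, respectively. A fixed block gave 4 GFP-mCherry (23.8%) and 2 mCherry-Fc calls (13.4%). The random block's correlation was 0.204. Not run were a fixed block and the number range term between lines, whose numbers do not meet, and exact tests within number ranges or natural replicates 1 to 3. Calls over all rows ranged from 645 to 3631 with IL-22, 5117 to 9890 with GFP-mCherry, 4773 to 10214 with mCherry-Fc, 64 to 618 between the proteins, 1515 to 7326 between lines, and 633 to 5208 and 541 to 5276 for the response differences. The interferon-stimulated genes that rose with IL-22 ranged from 2 to 15.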
